A study of Mus musculus with 3 samples.

Results

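The 10 genes described here carry fibroblast growth factor (FGF) and Wnt signals, or restrain them, in cells of the mouse retina: the ligand *Fgf15*, the FGF feedback inhibitors *Spry1* and *Spry2*, the secreted Wnt binders *Sfrp1* and *Sfrp2*, the Wnt receptors *Fzd1* and *Fzd5*, the secreted protein *Dkk3*, the Wnt target *Axin2* and the Wnt effector *Lef1*. They were chosen by name for their roles in retinal progenitors, with earlier results of these data known, and are 10 of the 19946 genes counted in at least 1 of 3 single-cell libraries. All 10 were counted in the explant library and in the library of postnatal day 0 (P0), and 9 in the library of postnatal day 14 (P14), whose deposited matrix has no row for *Fgf15*. The libraries held 5607, 5706 and 3298 cells, 14611 in all.

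FGF ligands bind receptor tyrosine kinases and act largely through the MAP kinase cascade, which switches on its own inhibitors, among them the Sprouty and Spred proteins and the phosphatase Dusp6. Wnt ligands bind Frizzled receptors with the co-receptors Lrp5 and Lrp6, which stabilises beta-catenin and lets it act with Lef and Tcf factors. Secreted frizzled-related proteins bind Wnt ligands outside the cell, and *Axin2* is a widely used target gene of the pathway. In the developing retina *Fgf15* and *Sfrp2* are known markers of dividing progenitors, and *Dkk3* is known from progenitors and from Muller glia, the radial glia that share many genes with them.

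The study asked whether the somatostatin receptor Sstr2 regulates the production of retinal neurons. Retinas of wild-type CD1 embryos were taken at embryonic day 14 and cultured for 6 days with a small molecule agonist of Sstr2 at 0, 5, 50 or 500 nM, with 2 samples at each dose, and the labels give these explants the age of P0. Retinas of littermates from a cross of C57BL/6 (C57BL/6NCrl in the study's methods) and CD1 animals carried no (*Sstr2* +/+, 1 sample per age), 1 (*Sstr2* +/-, 2 samples per age) or 2 (*Sstr2* -/-, 2 samples per age) copies of a targeted *Sstr2* deletion and were untreated. The deletion was in every cell of the animal, so values in one cell type can also reflect its loss elsewhere. These genotypes are called wild type, heterozygous and knockout. Nothing in the sources states how many retinas a sample held or that the samples came from separate animals. An explant or a retina in the results below therefore means 1 sample, which may hold more than 1. A p-value here measures only the spread between these samples, which may be technical.

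The start regions of 3 of the genes are shown because the level of each gene below differed between cell classes in its own way. *Sfrp2* was highest in primary progenitors, *Spry2* in primary progenitors and in Muller glia at P14, and *Axin2* in ganglion cells at P0. Each is the stretch of 250 bases before the gene's start, from RefSeq on GRCm38.p6, written 5′ to 3′ on the gene's own strand with CG dinucleotides in capitals. They lie at chr3:83766071-83766320 (plus strand), chr14:105896820-105897069 (minus strand) and chr11:108920099-108920348 (plus strand).
Sfrp2: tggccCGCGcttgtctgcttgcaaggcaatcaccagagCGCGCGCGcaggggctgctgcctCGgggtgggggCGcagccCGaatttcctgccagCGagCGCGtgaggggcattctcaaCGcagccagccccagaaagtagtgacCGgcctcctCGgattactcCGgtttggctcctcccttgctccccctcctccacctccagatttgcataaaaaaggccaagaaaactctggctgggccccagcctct
Spry2: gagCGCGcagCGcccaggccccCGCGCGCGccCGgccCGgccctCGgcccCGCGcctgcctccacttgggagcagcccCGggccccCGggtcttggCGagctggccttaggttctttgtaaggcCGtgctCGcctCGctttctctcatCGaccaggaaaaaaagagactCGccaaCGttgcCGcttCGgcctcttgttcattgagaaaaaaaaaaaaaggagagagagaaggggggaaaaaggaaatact
Axin2: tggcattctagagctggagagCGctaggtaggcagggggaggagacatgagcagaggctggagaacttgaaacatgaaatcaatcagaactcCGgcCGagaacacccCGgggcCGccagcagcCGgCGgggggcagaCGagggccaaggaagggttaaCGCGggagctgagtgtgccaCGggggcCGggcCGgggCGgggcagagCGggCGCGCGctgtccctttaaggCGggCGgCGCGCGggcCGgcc
The *Sfrp2* window holds 16 CG dinucleotides, a count reached by 25.4% of the 32841 RefSeq windows of this length. The *Spry2* window holds 23, a count reached by 13.3% of windows, and the *Axin2* window 24, a count reached by 12%, against a median of 6 over all windows. The core of the Lef and Tcf motif, CTTTGA read on either strand, occurs in none of these 3 windows, in 1 window of *Fzd1* and in 1 of the 4 windows of *Lef1*, and in 13.8% of all windows. Such a match is a string of letters, and its absence from this short stretch says nothing about the factor.

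On GRCm38 with the GENCODE M21 annotation, *Fgf15* lies at chr7:144896531-144900953, *Spry1* at chr3:37639947-37644598, *Spry2* at chr14:105891947-105896819, *Sfrp1* at chr8:23411502-23449632 and *Sfrp2* at chr3:83766321-83774316. *Fzd1* lies at chr5:4753839-4758035, *Fzd5* at chr1:64730558-64737751, *Dkk3* at chr7:112116017-112159057, *Axin2* at chr11:108920349-108950783 and *Lef1* at chr3:131110471-131224356. *Axin2* is on the same chromosome as *Sstr2*, 4668559 bases from it. Alleles near a targeted gene tend to be inherited with it, and the part of this in the genotype comparison was not tested.

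Counts are unique molecular identifiers (UMIs), each standing for a captured transcript. The explants gave 318 to 1075 cells and 1281682 to 4237324 UMIs each, the P0 retinas 1018 to 1254 cells and 8822880 to 10793649 UMIs, and the P14 retinas 304 to 1000 cells and 1266730 to 5886669 UMIs. The cell types are those the authors deposited, and each showed its own markers: in every explant, primary progenitors carried the progenitor genes *Ccnd1*, *Hes1*, *Lhx2* and *Sox2* at a summed 3234 to 3568 CPM, the usual scaling of a gene's UMIs by all UMIs of that cell type in that sample, at P0 at 5145 to 5561 CPM, and markers of the ciliary margin were close to 0 in them. The explant cells named RGCs also carried amacrine markers at a median of 592 CPM, beside ganglion cell markers at 2024 CPM. P0 photoreceptors carried the 4 progenitor markers at 1110 to 1933 CPM, beside photoreceptor markers at 1264 to 1539 CPM. In heterozygous retina 1 their progenitor markers summed to 1933 CPM and their photoreceptor markers to 1264. P0 neurogenic progenitors carried the 4 progenitor markers at a median of 1523 CPM, beside their own at 1058. At P14 the median of rod markers was 1147 CPM in amacrine cells, beside 1272 for amacrine markers. It was 5243 in cones, beside 10308 for cone markers, and 2125 in bipolar cells, beside 4454 for bipolar markers. The part of such shared markers in the levels below was not tested. *Xist*, expressed from the inactive X of female cells, was found in 98.3% to 99.3% of cells in 3 explants (5 nM 1, 500 nM 1 and 500 nM 2) and in 57.7% to 62.4% in the other 5, and at P0 it marked heterozygous retina 1 and knockout retina 2. At P14 heterozygous retina 2 stood apart, with *Xist* in 72.7% of its cells against 1.8% to 4.29% in the other 4 retinas. *Sstr2* UMIs were counted in all P0 genotypes, at 14.1 CPM in wild-type, 22.3 and 33.5 in heterozygous, and 41.0 and 43.3 in knockout retinas, so its count does not check the genotype labels. The libraries shared 9, 4 and 7 cell barcodes in pairs, doublets were not removed here, and samples are numbered by the order of their recorded barcodes.

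Levels are given as CPM of the UMIs summed over all cells of a type in a sample, as mean ± SD over samples, and a sample counts with at least 10 cells of the type. Because capture at the 3′ end differs between genes, levels are compared within a gene and not between genes. The cell types were drawn by the authors from clusters of the same counts, and *Fgf15* was one of the study's own markers of primary progenitors, so the order of cell types is a description and carries no test.

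*Fgf15* encodes the mouse counterpart of human FGF19 and was high in primary progenitors, the dividing cells that have not begun to form neurons. In explant primary progenitors its level ran from 76.2 to 154 CPM with a median of 110, and the mean was 114 ± 24.8 (SD, n = 8). This was 5.43 times the next type, amacrine cells at 21 ± 7.80, and no sample of the former reached down to the latter. Neurogenic progenitors, the cells about to leave the cycle, held 17.5 ± 6.80 CPM, and photoreceptors 4.54 ± 2.92.

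At P0 the order was the same at its top. *Fgf15* stood at 133 CPM in wild-type, 103 and 134 in heterozygous, and 111 and 133 in knockout retinas, a mean of 123 ± 14.8 (n = 5) in primary progenitors and 4.0 times the level in photoreceptors, 30.7 ± 6.28. Photoreceptors and neurogenic progenitors (29.8 ± 3.96) overlapped, and amacrine cells held 6.22 ± 3.46. The P0 photoreceptors also carried progenitor markers, whose part in their *Fgf15* level was not tested. Of the P0 primary progenitors 48.1% had at least 1 *Fgf15* UMI, against 1 of 85 ganglion cells (1.18%), although the median ganglion cell held 24853 UMIs and the median primary progenitor 8759. With every cell thinned to 1500 UMIs the share in primary progenitors was 13.9% at P0 and 14.0% in explants, where it had been 28.4% before thinning.

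*Spry2*, a Sprouty protein that dampens receptor tyrosine kinase signals, was highest in primary progenitors of both young libraries and in Muller glia at P14. In explant primary progenitors it ran from 70.3 to 137 CPM (median 96.0, mean 99.7 ± 20.6, n = 8), which was 2.16 times amacrine cells at 46.1 ± 8.94. At P0 the 5 retinas stood at 169, 161, 163, 159 and 152 CPM, in the order wild type, heterozygous, heterozygous, knockout, knockout (mean 161 ± 6.19). This was 2.26 times photoreceptors at 71.1 ± 14.7, where the part of the progenitor markers was again not tested. At P14 the same order of retinas gave 303, 318, 290.2, 260 and 295 CPM in Muller glia, 2.06 times the level in rods.

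Rods were the type after Muller glia for *Spry2*, with 161, 148, 119, 163.5 and 120 CPM in the 5 retinas. Cones followed at 38.1 ± 28.1, bipolar cells at 30.8 ± 3.52 and amacrine cells at 6.91 ± 6.31 (n = 3). Thinned to 1500 UMIs, 35.0% of Muller glia, 19.3% of rods and 4.90% of bipolar cells had a *Spry2* UMI, the order of their CPM. Cones, above bipolar cells by CPM, were below them by this share, at 2.61%.

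*Spry1*, the other Sprouty gene of the set, differed from *Spry2* in where it was highest. Its mean was higher in neurogenic than in primary progenitors in both young libraries, 25.3 ± 6.24 against 18.4 ± 5.41 CPM in explants and 14.0 ± 5.22 against 9.15 ± 1.98 at P0, but the samples of both types overlapped. Muller glia at P14 held 40.2 CPM in wild-type, 67.2 and 13.5 in heterozygous, and 53.4 and 38.4 in knockout retinas. The low value came from the 14 Muller glia of heterozygous retina 2.

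*Sfrp2* was the gene most confined to primary progenitors by fold in both young libraries. Explant samples ran from 100.2 to 186 CPM with a median of 136 (mean 135 ± 24.4, n = 8), which was 7.70 times amacrine cells (17.6 ± 9.89). At P0 the level was 59.8 CPM in wild-type, 55.6 and 61.1 in heterozygous, and 54.9 and 84.5 in knockout retinas, 4.26 times neurogenic progenitors (14.8 ± 4.46). In P14 retinas it was almost absent: 1 UMI was counted in 266 Muller glia, 1 in 68 amacrine cells, and none in 2271 rods (a share of cells with a UMI of up to 0.132%), 578 bipolar cells (up to 0.519%) or 115 cones (up to 2.61%).

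*Sfrp1* was also highest in primary progenitors of both young libraries, by less over the next type. In explant primary progenitors it ran from 27.4 to 46.2 CPM (median 35.8, mean 35.4 ± 5.70), 2.81 times neurogenic progenitors at 12.6 ± 5.47. At P0 the 5 retinas stood between 20.1 and 24.9 CPM (mean 21.6 ± 1.93), 1.54 times neurogenic progenitors at 14.0 ± 1.82, with ganglion cells just below those at 13.5 ± 4.88. At P14 Muller glia held 5.00 ± 4.83 CPM from 24 UMIs.

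Of the Frizzled receptors, *Fzd5* was abundant enough to order the types. It ran from 68.0 to 94.5 CPM in explant primary progenitors (median 84.5, mean 82.3 ± 8.84, n = 8), 3.52 times neurogenic progenitors at 23.4 ± 9.79. At P0 it stood at 91.0, 83.2, 86.5, 89.1 and 80.1 CPM in wild type, heterozygous, heterozygous, knockout and knockout primary progenitors, 2.29 times neurogenic progenitors. Muller glia held 213 ± 37.4 CPM (148 to 240.5, n = 5), 19 times the next type, amacrine cells at 11.2 ± 10.5, which was the widest such gap of any gene at P14.

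*Fzd1* was near the limit of detection throughout. Explant primary progenitors gave 17 UMIs over 8 samples (2.38 ± 1.53 CPM) and P0 primary progenitors 62 UMIs over 5 (2.36 ± 0.862 CPM). By the mean, cells named RGCs were highest in both young libraries, from 3 UMIs in explants and 11 at P0. Muller glia were highest at P14, at 11.6 ± 5.69 CPM from 36 UMIs, and none was found in 115 cones, which allows a level of up to 2.49 CPM.

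*Dkk3* encodes a secreted protein of the Dickkopf family that, unlike its relatives, is not a clear Wnt antagonist. Explant primary progenitors ran from 301 to 450 CPM with a median of 351 (mean 354 ± 44.2, n = 8), 2.27 times neurogenic progenitors at 156 ± 24.5. At P0 primary progenitors held 328 CPM in wild-type, 311 and 353 in heterozygous, and 325 and 323 in knockout retinas, and neurogenic progenitors 215 ± 20.9, amacrine cells 143 ± 14.0, photoreceptors 112 ± 17.4 and ganglion cells 27.9 ± 18.4. The P0 ratio of primary to neurogenic progenitors was 1.52, as small as that of *Sfrp1*, though their values did not overlap. Values of P0 amacrine cells and photoreceptors overlapped.

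At P14 *Dkk3* was a Muller glial gene. Muller glia held 1084 CPM in wild-type, 1360 and 1714 in heterozygous, and 1351 and 1554 in knockout retinas, which is 8.96 times amacrine cells at 158 ± 125 (n = 3). Rods, bipolar cells and cones held 16.2 ± 5.87, 14.7 ± 6.59 and 11.7 ± 8.07 CPM and overlapped each other.

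*Axin2* at P0 was highest in ganglion cells, with both progenitor classes below amacrine cells. P0 ganglion cells held 30.0 CPM in wild-type, 29.9 and 20.3 in heterozygous, and 21.1 and 26.8 in knockout retinas, from 58 UMIs in 85 cells, and amacrine cells, the next type, 8.70 ± 1.90. Every ganglion cell value lay above every amacrine value, a ratio of means of 2.94. P0 primary progenitors held 5.49 ± 0.823 CPM and neurogenic progenitors 3.06 ± 1.31.

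After thinning to 1500 UMIs, 4.71% of the 85 P0 ganglion cells had an *Axin2* UMI, against 1.68% of P0 amacrine cells and 0.640% of P0 primary progenitors. The deeper ganglion cells kept the higher share, but it rests on few cells. In explants the means of amacrine cells (7.57 ± 3.36 CPM) and photoreceptors (7.04 ± 2.47) exceeded that of primary progenitors (2.32 ± 0.861, from 17 UMIs). Amacrine values, from 3.32 CPM up, overlapped those of primary progenitors, which reached 3.58, and photoreceptor values, from 3.94 up, did not. The explant cells named RGCs gave only 7 UMIs. At P14 the 5 types ran from 18.9 ± 2.68 CPM in rods to 10.4 ± 2.84 in Muller glia, and each type overlapped its neighbour in that order.

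*Lef1* was, like *Fgf15* and *Fzd5*, highest in primary progenitors of both young libraries, at a low level. Primary progenitors held 5.94 ± 3.43 CPM in explants, overlapping neurogenic progenitors at 2.91 ± 2.47, and 7.03 ± 1.56 at P0, where the values of 4.65 to 8.98 all lay above those of neurogenic progenitors (2.53 ± 1.21) for a ratio of 2.78. Muller glia gave 19 UMIs at P14 (4.63 ± 4.68 CPM) and the other 4 types 4 or fewer in all.

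**Figure D1:**
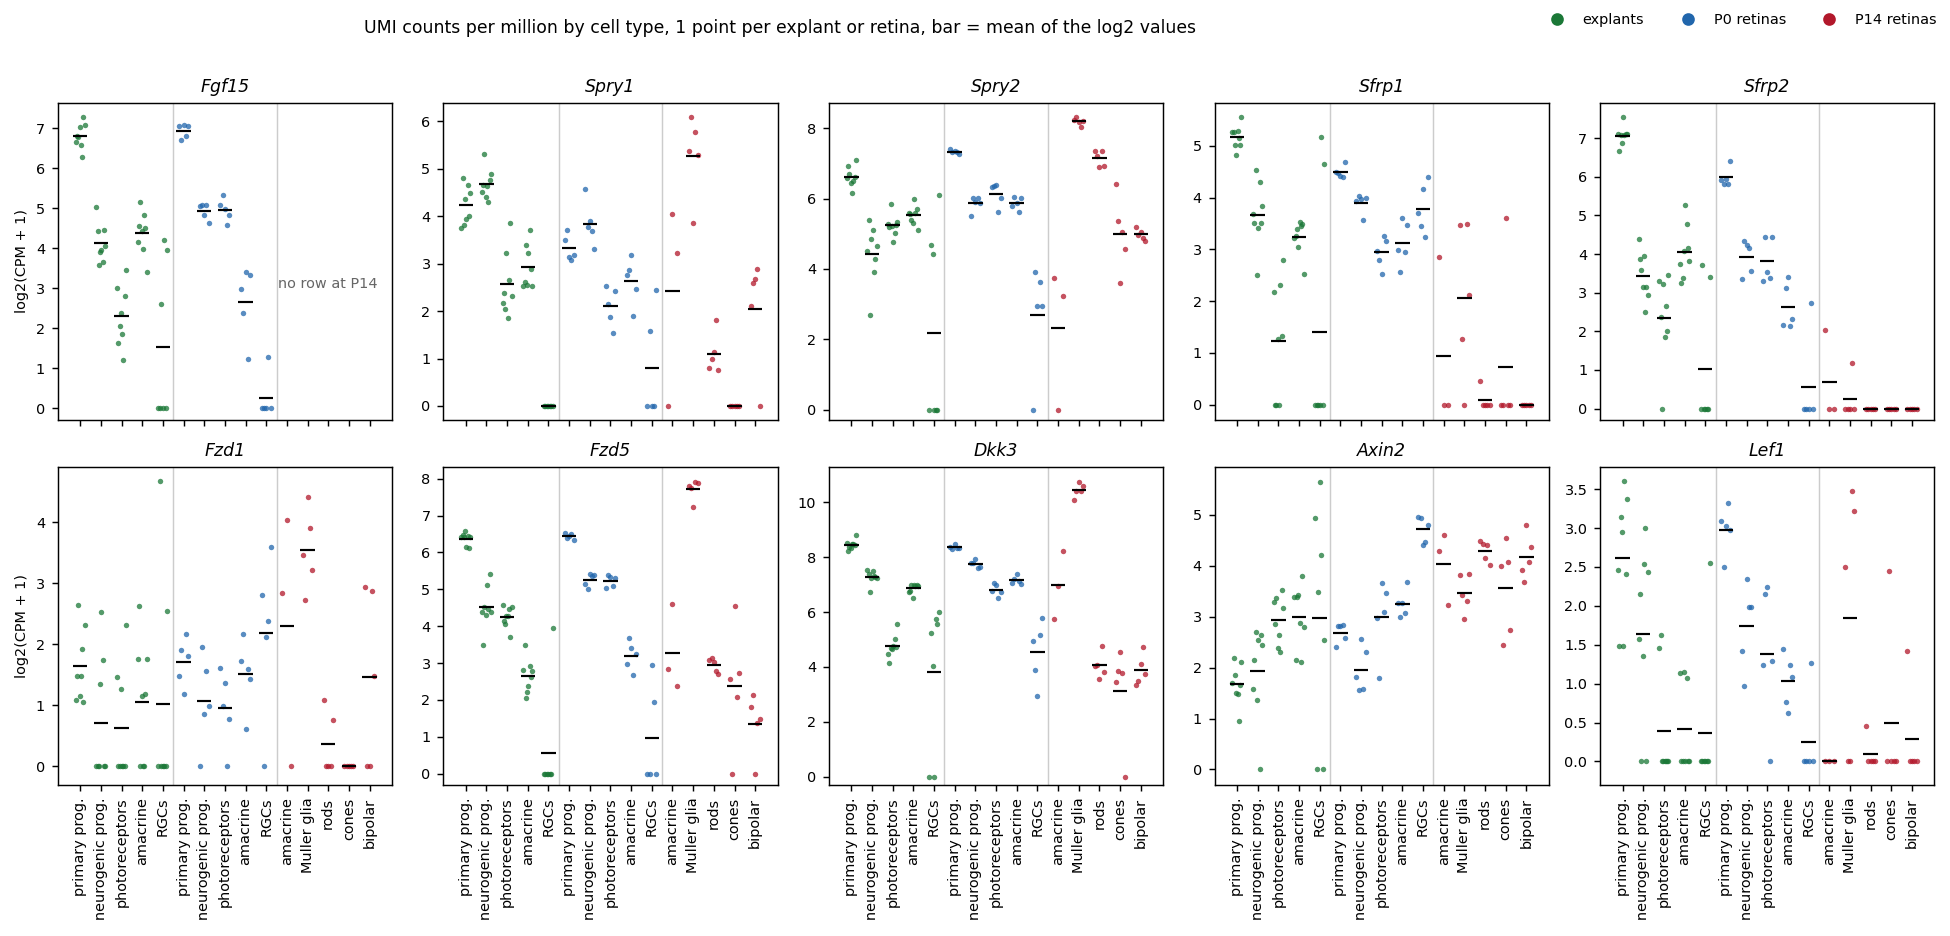
Level of each of the 10 genes in each cell type of the explant, P0 and P14 libraries, in CPM on a log axis, with a point for every sample and a bar at the mean. Primary progenitors are highest for *Fgf15*, *Spry2*, *Sfrp1*, *Sfrp2*, *Fzd5*, *Dkk3* and *Lef1* in explants and at P0, ganglion cells are highest for *Axin2* at P0, and Muller glia lead for *Spry1*, *Spry2*, *Fzd5* and *Dkk3* at P14.

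The type with the highest mean was the same by the median over samples in 28 of 29 pairs of gene and library, by the unthinned share of cells in 27, and by the thinned share in 25. The pairs that changed were *Axin2*, *Lef1*, *Fzd1* and *Sfrp1*, in types whose samples overlapped except for *Sfrp1* at P0.

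Over the 10 combinations of library and cell type in explants and at P0, *Sfrp2* was the gene most like *Fgf15* of the 8572 compared, with Pearson's r of 0.971 on mean log2(CPM + 1), ahead of *E130114P18Rik* at 0.965 and *Adamts1* at 0.964. *Axin2* ran the other way from *Fgf15*, at -0.736. Over the 15 combinations that include P14, the gene most like *Dkk3* was *Sema5a* (0.974), the most like *Fzd5* was *Wipi1* (0.947), with the Wnt effector *Tcf7l2* at 0.941 among the closest of 10009 genes, and the most like *Spry2* was *E2f5* (0.915). These points share libraries and depth, so the correlations are descriptions.

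Within primary progenitors, 9 pairs of the genes were compared for being seen in the same cells. With cells thinned to 1500 UMIs, *Fgf15* was found in 21.2% of explant cells that had a *Sfrp2* UMI and in 12.3% of those without, higher in 7 of 8 explants, a difference of 8.85 ± 8.17 percentage points (SD, n = 8). At P0 the shares were 20.6% and 13.3%, higher in 4 of 5 retinas, a difference of 7.28 ± 5.64 points. *Dkk3* among cells with an *Fgf15* UMI had the widest explant difference of the 9 pairs, 11.1 ± 6.71 points and higher in 7 of 8 explants, but 1.22 ± 3.55 points at P0, higher in 3 of 5 retinas. *Fgf15* among cells with a *Spry2* UMI differed by 3.26 ± 6.76 points in explants, higher in 6 of 8, and by -1.22 ± 5.29 at P0, higher in 1 of 5. These are descriptions with no test.

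The other genes of the pathways, taken from a list of 39 FGF and 60 Wnt genes, place the 10 in context. Of the ligands, *Fgf9* stood at 191 ± 13.9 CPM in explant primary progenitors, 162 ± 13.7 at P0 and 181 ± 33.2 in Muller glia, and at 27.7 ± 2.5 in rods. *Fgf3* and *Fgf8* held 10.0 ± 2.46 and 3.36 ± 1.13 in P0 primary progenitors, and the ligands are not ranked by these levels. The receptor *Fgfr1* held 26.8 ± 7.83 CPM in explant primary progenitors, 25.1 ± 3.8 at P0 and 84.2 ± 11.4 in Muller glia. Of the genes that FGF signals switch on, the transcription factor *Etv5* held 91.6 ± 4.91 CPM in P0 primary progenitors and 22.1 ± 4.59 in neurogenic ones, and *Dusp6* 49.8 ± 3.8 and 28.9 ± 6.46.

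Wnt pathway genes were less uniform. The receptor *Fzd3* was higher in P0 neurogenic (149 ± 12.4 CPM) than primary progenitors (83.3 ± 4.68), opposite to *Fzd5*, and the beta-catenin gene *Ctnnb1* was level between them (229 ± 23.6 and 212 ± 5.40). *Tcf7l2* held 112 ± 5.91 CPM in P0 primary progenitors, 39.2 ± 6.01 in neurogenic progenitors and 0.728 ± 1.04 in ganglion cells. Muller glia carried the secreted Wnt binder *Frzb* at 138 ± 19.9 CPM, against 0.267 ± 0.291 in P0 primary progenitors, and the Frizzled ligand *Ndp* at 37.8 ± 8.75 against 2.70 ± 0.638.

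Primary progenitors of the cultured explants and of the P0 retina were set side by side without a test, because culture, strain and library cannot be told apart. Explants of every agonist dose and retinas of every *Sstr2* genotype were pooled, so treatment and genotype also differed between the sides. Among 6373 genes of at least 20 CPM in either, 17.9% had every explant above every retina and 13.5% every explant below. *Sfrp2* (2.14-fold) and *Sfrp1* (1.64-fold) were above in explants and *Spry2* was below, 1.61-fold higher at P0. *Fgf15*, *Fzd5* and *Dkk3* overlapped, with ratios of P0 to explant means for *Fgf15* of 1.08. *Spry1*, under 20 CPM in both, was above in explants at 18.4 against 9.15 CPM, and *Axin2* below at 2.32 against 5.49.

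The same display for P14 Muller glia and P0 primary progenitors covered 7150 genes, of which 30.8% were above in Muller glia and 33.9% below with no overlap. *Spry1* (4.65-fold), *Dkk3* (4.31-fold), *Fzd5* (2.48-fold) and *Spry2* (1.82-fold) were above in Muller glia, as were *Fzd1* (4.93-fold) and *Axin2* (1.89-fold), both under 20 CPM. *Sfrp1* was 4.32-fold higher in P0 primary progenitors and *Sfrp2*, with 1 UMI in Muller glia, was also below. *Lef1* overlapped. Muller glia carried rod markers at 709 to 2099 CPM, and their part in these levels was not tested.

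The first comparison of conditions asked whether the agonist changed these genes in primary progenitors. *Xist* was found in 99.3% and 98.3% of cells in the explants at 500 nM and in 58.7% and 61.1% in those at 0 nM. Dose and this difference cannot be told apart between 500 and 0 nM, in this or any explant cell type, when all cells are used. Fold changes here and below are log2 values from edgeR's quasi-likelihood test on UMIs summed per sample and cell type. Adjustment was by Benjamini-Hochberg over all genes tested, with a threshold of 0.05. The standard error (SE) was derived from that test, as the size of the log2 fold change over the square root of the F statistic. *Fgf15* stood at 101 and 111 CPM at 0 nM, 110 and 130 at 5 nM, 95.6 and 76.2 at 50 nM, and 154 and 135 at 500 nM. The explants at 500 nM were above those at 0 nM, but the order did not follow the dose, since the explants at 50 nM were the lowest.

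Of the 7 genes that passed edgeR's filter on low counts (all but *Fzd1*, *Axin2* and *Lef1*), 0 were called between 500 and 0 nM, against 0.317% of 8514 genes. *Fgf15* was the only one with an unadjusted p under 0.05, as were 8.63% of all genes, at 0.40 (SE 0.17, adjusted p = 0.478), and DESeq2 gave 0 by either measure. DESeq2 was the stricter tool on these sums: over 15 comparisons it gave an unadjusted p under 0.05 to 0.236% to 4.56% of all genes, against 2.89% to 9.88% by edgeR, so a count of 0 by DESeq2 is weak evidence that a gene did not differ. *Fgf15* was also the only one with both explants at 500 nM above both at 0 nM, which held for 22.8% of all genes. Across the leave-out and other alternatives its log2 fold change ran from 0.29 to 0.53, with adjusted p from 0.366 to 1.0.

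*Dkk3* was 364 and 301 CPM at 0 nM, 330 and 325.5 at 5 nM, 355 and 357 at 50 nM, and 346 and 450 at 500 nM. Its log2 fold change was 0.20 (SE 0.13, adjusted p = 0.686 by edgeR's quasi-likelihood test) and its groups overlapped. Explant 500 nM 2, the highest for *Dkk3*, *Spry2* and *Sfrp1*, also carried neurogenic progenitor markers at 262 CPM in these cells, against 121 to 157 in the other explants, and the part of that difference in the result was not tested.

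*Fzd5* was 84.8 and 87.7 CPM at 0 nM, 83.8 and 94.5 at 5 nM, 70.3 and 85.5 at 50 nM, and 68.0 and 84.3 at 500 nM. Both explants at 500 nM were below both at 0 nM, as for 14.9% of all genes, with a log2 fold change of -0.21 (SE 0.17, adjusted p = 0.781 by edgeR). *Sfrp2* (0.12, SE 0.17, adjusted p = 0.894), *Spry2* (0.12, SE 0.18, adjusted p = 0.901), *Sfrp1* (0.04, SE 0.25) and *Spry1* (0.00, SE 0.42) overlapped between the doses.

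A slope over all 4 doses, in log2 units per unit of log10(dose in nM + 1), called 0 of the same 7 genes by edgeR or by DESeq2, with 0 at an unadjusted p under 0.05, against 0.529% of genes called and 9.88% at that p. The slopes ran from -0.10 for *Fzd5* (SE 0.06, adjusted p = 0.59) to 0.10 for *Fgf15* (SE 0.07, adjusted p = 0.678). The slope of *Dkk3* was 0.08 (SE 0.04, adjusted p = 0.541).

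**Figure D2:**
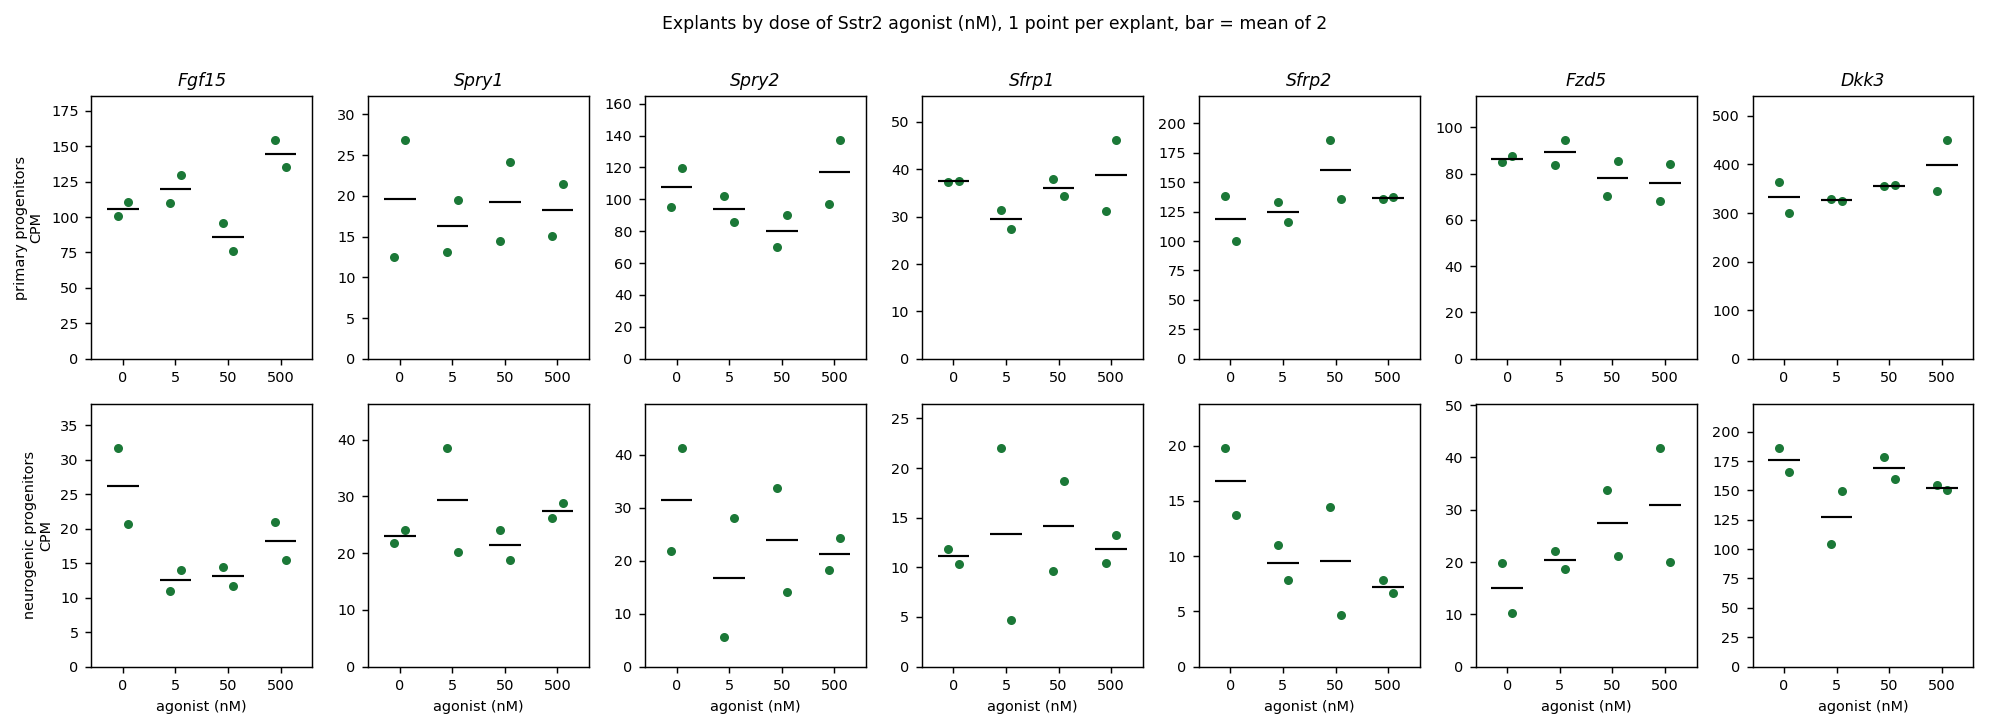
Level in CPM of *Fgf15*, *Spry1*, *Spry2*, *Sfrp1*, *Sfrp2*, *Fzd5* and *Dkk3* in explant primary and neurogenic progenitors by dose of Sstr2 agonist. Doses are 0, 5, 50 and 500 nM. Each of the 2 explants per dose is a point, with a bar at the mean. In primary progenitors *Fgf15* stands at 135 and 154 CPM at 500 nM and at 101 and 111 at 0 nM. At 50 nM it stands at 76.2 and 95.6 there, and the doses overlap in primary progenitors for most other genes.

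Neurogenic progenitors are the cells in which *Sstr2* was counted most. Of 4 genes tested there (*Spry1*, *Spry2*, *Fzd5* and *Dkk3*), 0 were called between 500 and 0 nM by edgeR, 0 had an unadjusted p under 0.05, and DESeq2 gave 0 by both measures, against 0.0988% of 6072 genes called by edgeR and 5.24% at an unadjusted p under 0.05. *Fzd5* was 19.8 and 10.3 CPM at 0 nM and 41.8 and 19.9 at 500 nM, barely separated, with a log2 fold change of 0.87 (SE 0.53, adjusted p = 0.964). *Spry1* (0.27, SE 0.48) was likewise above, and 18.7% of all genes in this fit were. *Dkk3* was 186 and 165 CPM at 0 nM, 105 and 150 at 5 nM, 178 and 159 at 50 nM, and 154 and 151 at 500 nM, for -0.23 (SE 0.20, adjusted p = 0.964), and separation downward held for 16.9% of genes.

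The slope over dose in neurogenic progenitors called 0 of the 4 genes by edgeR and DESeq2, with 0 at an unadjusted p under 0.05 by either, against 0.0659% of genes called and 4.48% at that p. Whether the agonist acted differently in the 2 progenitor classes was tested directly as the effect in neurogenic minus the effect in primary progenitors, with the sample as a block. Of 7 genes 0 were called by edgeR, the only tool run on this difference, against 0.13% of 7690. An unadjusted p under 0.05, which 6.29% of genes had, was found for *Fgf15* at -1.03 (SE 0.49, adjusted p = 0.79), *Sfrp2* at -1.36 (SE 0.65, adjusted p = 0.79) and *Fzd5* at 1.07 (SE 0.53, adjusted p = 0.793).

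The values behind the *Fgf15*, *Sfrp2* and *Fzd5* differences are small counts in neurogenic progenitors. *Fzd5* had 10 and 3 UMIs there at 0 nM and 16 and 9 at 500 nM. *Fgf15* was 31.7 and 20.7 CPM at 0 nM and 20.9 and 15.5 at 500 nM in those cells. *Sfrp2* was 19.8 and 13.8 CPM at 0 nM, 11 and 7.80 at 5 nM, 14.4 and 4.69 at 50 nM, and 7.84 and 6.64 at 500 nM, while in primary progenitors it was 138 and 100.2 at 0 nM and 136 and 137 at 500 nM. Both *Sfrp2* values at 500 nM lay below both at 0 nM in the neurogenic cells, where the gene had too few counts to pass the filter of that fit.

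In the other explant cell types 0 of the genes were called by edgeR or DESeq2, against 0.0941% of genes in photoreceptors and 0.269% in amacrine cells. Of the 3 tested in photoreceptors, *Dkk3* was among the 5.66% of genes with an unadjusted p under 0.05 (0.81, SE 0.36, adjusted p = 0.843), while 0 of 4 were among the 5.28% in amacrine cells, where *Sfrp2* (0.37, SE 0.43) and *Dkk3* (0.23, SE 0.15) had both explants at 500 nM above both at 0 nM, as did 16.6% of all genes. DESeq2 gave 0 in both types. *Dkk3* in photoreceptors was 21.1 and 16.7 CPM at 0 nM and 25.4 and 45.7 at 500 nM, a separation shared by 15.8% of genes. The summed progenitor markers in the same cells were 209.5 and 221 CPM at 0 nM and 245 and 463 at 500 nM, the explant with the most *Dkk3* having the most of them, and their part in the result was not tested. In the explant cells named RGCs none of the genes passed the filter.

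The second set of comparisons asked what loss of *Sstr2* did to these genes, with knockout set against heterozygous retinas because each age had a single wild type. In P0 primary progenitors all 10 genes were tested, 0 were called by edgeR or by DESeq2, and 0 had an unadjusted p under 0.05 by either, against 0.00838% of 11939 genes called by edgeR and 3.58% at that p. The log2 fold changes ran from -0.37 (SE 0.26) for *Spry1* to 0.54 (SE 0.53) for *Fzd1*, and the smallest unadjusted p was 0.187. *Fgf15*, *Fzd5* and *Dkk3* were close to 0, and each changed sign under some alternatives: *Fgf15* differed by 0.04 (SE 0.13), *Fzd5* by -0.01 (SE 0.09) and *Dkk3* by -0.04 (SE 0.08).

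*Sfrp2* held 84.5 CPM in knockout retina 2 against 54.9 to 61.1 in the other 4, and its log2 fold change of 0.25 (SE 0.18, adjusted p = 0.997 by edgeR) was -0.08 without that retina. *Spry2* was lower in both knockout (159 and 152 CPM) than both heterozygous retinas (161 and 163), a log2 fold change of -0.07 (SE 0.07) and an order shared by 15.5% of genes. *Axin2* held 4.28 CPM in wild-type, 6.03 and 6.04 in heterozygous, and 6.13 and 4.98 in knockout retinas, and *Lef1* 7.50, 4.65, 7.13, 8.98 and 6.90 in the same order, the lowest being heterozygous retina 1.

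**Figure D3:**
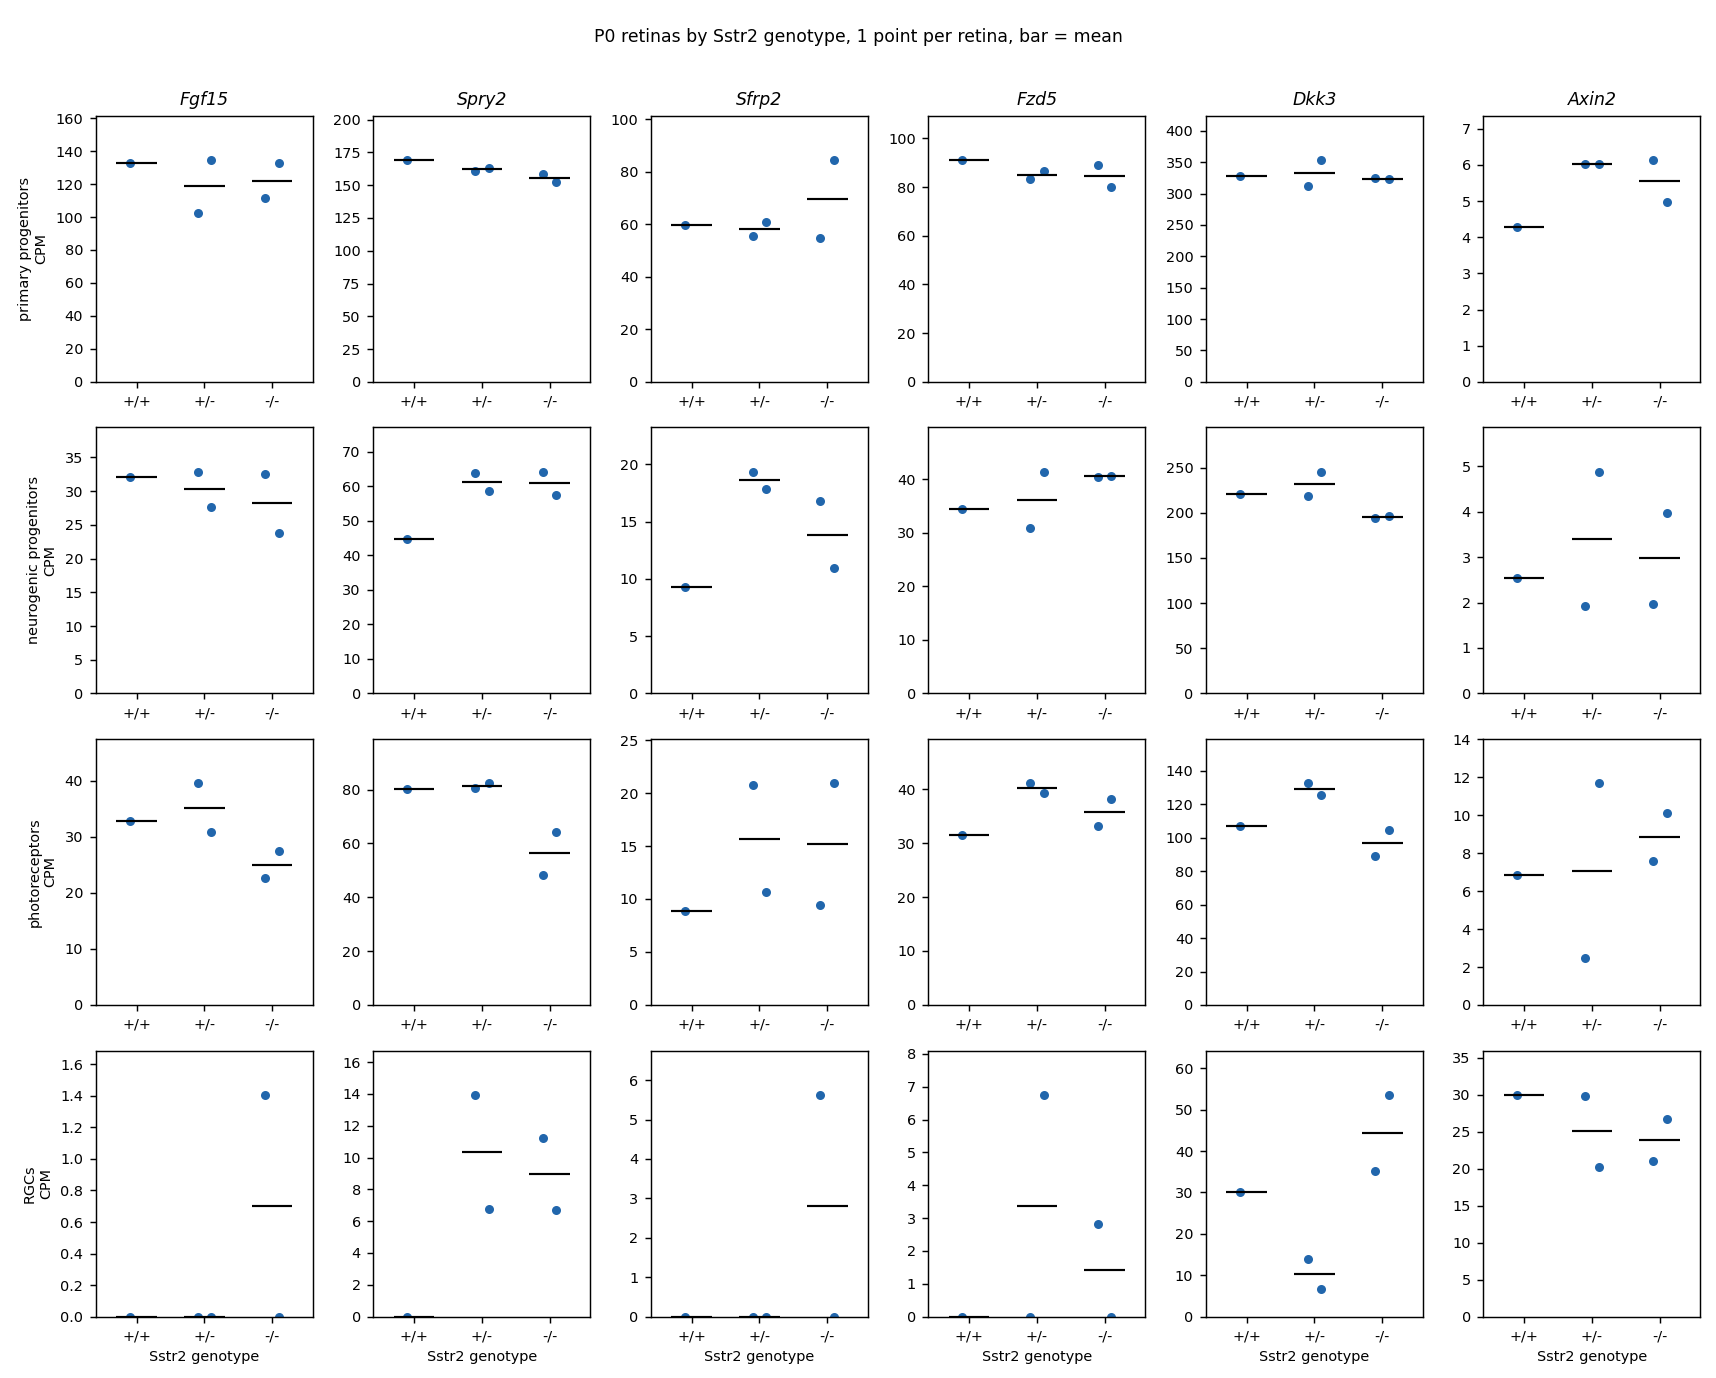
Level in CPM of *Fgf15*, *Spry2*, *Sfrp2*, *Fzd5*, *Dkk3* and *Axin2* in P0 primary progenitors, neurogenic progenitors, photoreceptors and ganglion cells. Wild type (1 retina), heterozygous (2) and knockout (2) retinas are shown with a point for each retina and a bar at the mean. In primary progenitors the genotypes overlap for *Fgf15*, *Dkk3* and *Fzd5*, and *Sfrp2* has a single high point at 84.5 CPM in a knockout retina.

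In P0 neurogenic progenitors 7 genes were tested and 0 were called by edgeR or DESeq2, against 0.0111% of 8984 genes. *Dkk3* alone was among the 4.14% of genes with an unadjusted p under 0.05 by edgeR (-0.24, SE 0.11, adjusted p = 0.989), and DESeq2 gave 0 such genes. It held 221 CPM in wild-type, 219 and 245 in heterozygous, and 194.5 and 196 in knockout retinas. The knockout values were the lowest of the 5. With *Spry1* and *Sfrp2*, 3 of the 7 genes had both knockouts below both heterozygous retinas, against 17.6% of all genes. The difference between the knockout effects in neurogenic and primary progenitors called 0 of 10 genes by edgeR, with 0 at an unadjusted p under 0.05, against 0.043% of 11622 genes called and 4.28% at that p.

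P0 photoreceptors gave the smallest p-values of the genes outside ganglion cells, though 0 of 7 were called by edgeR or DESeq2, against 0.0592% of 10129. *Spry2* was 80.2 CPM in wild-type, 80.6 and 82.3 in heterozygous, and 48.3 and 64.2 in knockout retinas, for -0.51 (SE 0.16, adjusted p = 0.542). *Dkk3* was 107, 133, 125, 89.1 and 105 in the same order, for -0.40 (SE 0.13, adjusted p = 0.582). *Fgf15* was 32.9, 39.6, 30.8, 22.8 and 27.4, for -0.47 (SE 0.24, adjusted p = 0.75).

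In each of these 3 genes both knockout retinas lay below the other 3. With *Fzd5*, 4 of the 7 genes had both knockouts below both heterozygous retinas, against 19.8% of all genes in this fit, and *Sfrp1* (0.61, SE 0.50) had both above, as did 16.9%. By edgeR 2 of the 7 (*Spry2* and *Dkk3*) had an unadjusted p under 0.05, against 6.87% of genes, and by DESeq2 0. The 4 progenitor markers summed to 1458 CPM in wild-type, 1933 and 1599 in heterozygous, and 1258 and 1110 in knockout retinas in the same photoreceptors, with none of the 4 at 0 in any retina. Both knockouts were the lowest for these markers too, and their part in these results was not tested.

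P0 amacrine cells had 8 genes tested and 0 called by edgeR or DESeq2, against 0.0386% of 10373. *Sfrp2* was 3.44 CPM in wild-type, 7.69 and 9.65 in heterozygous, and 3.39 and 3.95 in knockout retinas, for -1.21 (SE 0.54, adjusted p = 0.998), the only unadjusted p under 0.05 by edgeR, against 4.29% of genes, with 0 by DESeq2. Of the 8 genes 4 had both knockouts below both heterozygous retinas, against 17.7% of all genes. The knockout values of *Sfrp2* lay beside the wild type, and against that retina alone the log2 fold change was 0.11. The 4 progenitor markers summed to 249.7 CPM in wild-type, 457 and 423 in heterozygous, and 291 and 367 in knockout amacrine cells, so they too were highest in the heterozygous retinas, and their part in these results was not tested.

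The 1 call among all these comparisons was *Dkk3* in P0 ganglion cells, where 2 of the genes were tested. In this fit 0.586% of 6994 genes were called, 0.272% as higher in knockouts, 6.25% had an unadjusted p under 0.05 and 17.3% had both knockouts above both heterozygous retinas. It held 30.0 CPM in wild-type, 13.9 and 6.75 in heterozygous, and 35.2 and 53.6 in knockout retinas, and rose by 1.93 (SE 0.52, adjusted p = 0.0388) from heterozygous to knockout by edgeR's quasi-likelihood test. These values came from 10, 7, 2, 25 and 24 UMIs, or 68 in 85 cells. The single wild type lay between the heterozygous and knockout values, and against it the log2 fold change was 0.47.

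The call was lost by DESeq2 (2.04, adjusted p = 1.0) and when any 1 retina was left out, with log2 fold changes of 1.63 to 2.62 and adjusted p of 0.0807 to 0.762 over those 5 fits. The 4 progenitor markers, whose own cells hold more *Dkk3*, summed in these ganglion cells to 21 CPM in wild-type, 31.9 and 10.1 in heterozygous, and 87.2 and 20.1 in knockout retinas, with 2 of the 4 at 0 in every retina but knockout retina 1, where 0 were. The 3 horizontal cell markers summed to 24.0 CPM in wild-type, 57.8 and 37.1 in heterozygous, and 81.6 and 91.6 in knockout retinas. The part of either marker list in the result was not tested. *Axin2*, highest in this type, did not differ between knockout and heterozygous ganglion cells beyond its error (-0.14, SE 0.49, adjusted p = 0.993).

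At P14, 5 genes were tested in Muller glia, and 0 were called by edgeR or DESeq2 with 0 at an unadjusted p under 0.05 by either, against 0.102% of 8816 genes called and 3.27% at that p. *Dkk3* differed by -0.08 (SE 0.16), *Spry2* by -0.17 (SE 0.20) and *Spry1* by -0.23 (SE 0.39), which was 1.79 without heterozygous retina 1 and -0.58 without heterozygous retina 2. *Fzd5* held 223 CPM in wild-type, 216 and 148 in heterozygous, and 240.5 and 237 in knockout retinas, for 0.29 (SE 0.23), with both knockouts above both heterozygous retinas as for 18.0% of genes, and the low value again came from the 14 cells of heterozygous retina 2, the retina that stood apart in *Xist*. The part of that difference in these results was not tested.

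In the neurons of the P14 retina 0 of 4 genes were called in rods, 0 of 1 in cones and 0 of 3 in bipolar cells by edgeR or DESeq2, none with an unadjusted p under 0.05, against 0.0106%, 0.0785% and 0.137% of genes called and 2.89%, 4.48% and 3.45% at that p. *Spry2* in rods, the largest of these levels, differed by 0.03 (SE 0.16) and *Axin2* in rods by -0.16 (SE 0.30). Both knockouts were below both heterozygous retinas for *Fzd5* in rods, as for 13.5% of genes, and for *Spry2* in bipolar cells, as for 14.7%. Amacrine cells could not be fitted, since the heterozygous retinas held 4 cells each.

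**Figure D4:**
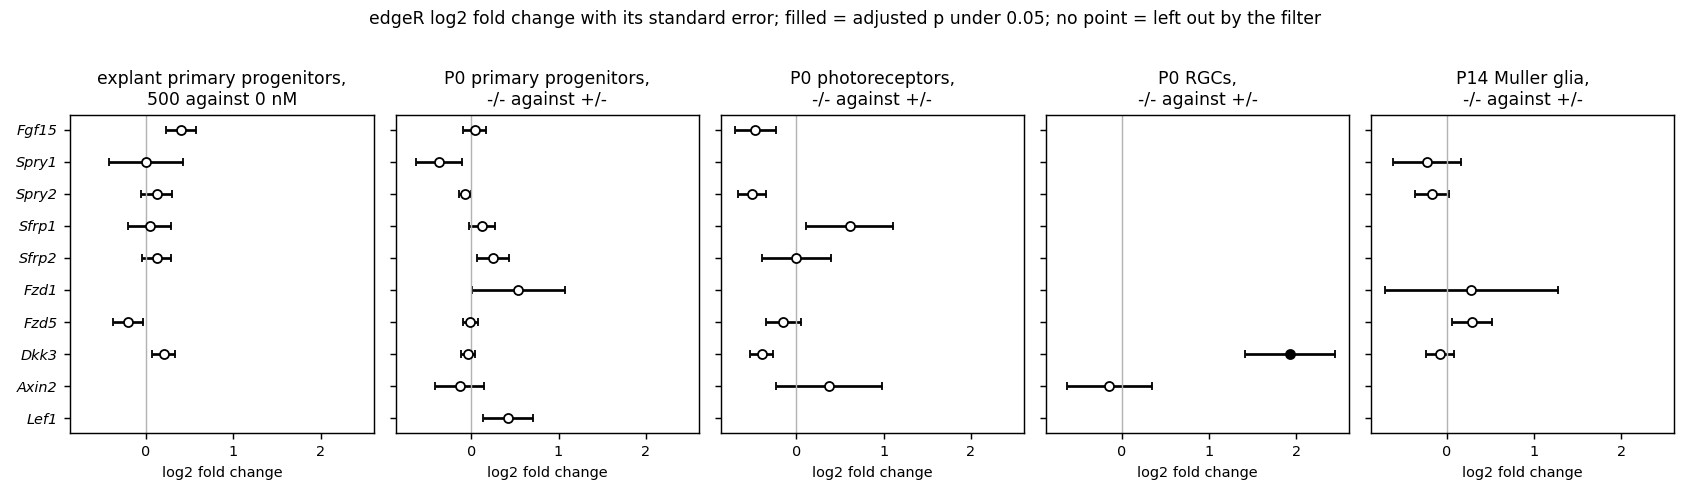
Log2 fold change with its standard error for each gene tested, for 500 against 0 nM agonist in explant primary progenitors. The same is shown for knockout against heterozygous retinas in P0 primary progenitors, photoreceptors and ganglion cells and in P14 Muller glia. Many of the standard error bars cross 0, and *Dkk3* in P0 ganglion cells, at 1.93 (SE 0.52), is the only value past the threshold.

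Counted over cell types, 18 of 50 possible pairs of gene and type were tested for the agonist, 34 of 50 for the P0 genotype and 13 of 40 for the P14 genotype, with 0, 1 and 0 called and 2, 5 and 0 at an unadjusted p under 0.05 by edgeR. Across the same fits 5.24% to 8.63%, 3.58% to 6.87% and 2.89% to 4.48% of all genes had such a p. The shares of all genes called were 0.0941% to 0.317%, 0.00838% to 0.586% and 0.0106% to 0.137%. Pairs of 1 contrast share samples and are not independent. No other FGF or Wnt gene of the lists was called by edgeR in any comparison, nor by DESeq2 where it was run, while edgeR called at most 0.586% of all genes in any of them. In explant primary progenitors 22 of the FGF and 20 of the Wnt genes were tested, 2 and 1 had an unadjusted p under 0.05 against 8.63% of all genes, and their median log2 fold changes were 0.024 and 0.06, beside 0.118 for the 7 genes of the set and 0.006 for all genes.

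In P0 primary progenitors 31 and 36 were tested, with medians of -0.031 and -0.035, beside 0.014 for the 10 genes and -0.003 for all, and 0 and 1 at an unadjusted p under 0.05 against 3.58% of all genes. In P0 photoreceptors the FGF genes had a median of -0.164 over 24 tested, close to -0.153 for the 7 genes of the set, while the 27 Wnt genes had -0.021 and all genes -0.004. An unadjusted p under 0.05 was found for 4 FGF and 2 Wnt genes, against 6.87% of all genes. The progenitor markers in these photoreceptors were also lowest in both knockouts, and their part in these medians was not tested. In Muller glia the medians were -0.035 over 22 FGF genes and 0.052 over 27 Wnt genes, beside -0.084 for the 5 genes of the set.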

How the data were processed

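Single cells of mouse retina were measured in 3 multiplexed 10x Chromium 3' libraries of 8 explant, 5 P0 and 5 P14 samples, labelled with lipid-anchored barcodes (MULTI-seq) after papain dissociation. The authors assigned cells to samples with deMULTIplex, annotated cell types from clusters and deposited unnormalized UMI counts for each gene in each cell, which are used here, and SCTransform values, which are not. The submitters' processing notes name Cell Ranger 3.1.0, Seurat 3 and the build mm10. The filters on cells are not given in the sources used here.

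For every sample, the UMI counts of a cell type were added up, provided it had at least 10 cells of that type. The explant cells named RGCs of explant 0 nM 2 were left out by that limit. Levels are CPM of these sums with no pseudocount. The sums went into the quasi-likelihood test of edgeR 4.0.16 (R 4.3.3) after TMM scaling and filterByExpr, with p-values adjusted by Benjamini and Hochberg's method over all genes tested and a threshold of 0.05. A fit took every group of a library, but a lone wild type leaves the estimated dispersion unaffected. The method was tested on simulated data whose changes were larger than most differences reported here, so how often it finds small changes was not tested. Alternatives were DESeq2 1.42.0, its size factors in edgeR, no filter, leaving out each sample, only cells with a *Xist* UMI (explants), a *Xist* term (P0), and other control groups. For gene expression in these libraries the study itself tested single cells, which treats cells as replicates. It also measured marker genes, among them *Fgf15*, by qRT-PCR in agonist-treated explants, and counted stained cells in sections. Doublets were neither called nor removed here. For shares of cells with a UMI, each cell was also thinned to 1500 UMIs, leaving out shallower cells. Limits that a count of 0 allows use 3 counts and, like all shares, cover counting error only.

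The genes and the pathway and marker lists were chosen with earlier results of these data known, and 1 progenitor marker of the list is not reported here. All 10 genes are named. Genes of like pattern are the highest Pearson correlations over means of log2(CPM + 1) per library and type, among genes reaching 20 CPM in some type. Start regions came from RefSeq, which matched 7 of the 10 genes in the table used. Sums, levels and plots were made in Python 3.11.15 (numpy 2.4.6, pandas 2.3.3, scipy 1.17.1, matplotlib 3.10.9).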

Additional observations from a re-analysis of the deposited data

How the results depend on the processing

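Depth and sample number limit these results. Each group held 2 samples except the wild type and the explant cells named RGCs at 0 nM, with 1. Only *Spry2*, *Fzd5* and *Dkk3* were tested in most of the cell types fitted. The other genes of the set fell under the filter in most of them or, for *Fgf15* at P14, had no row. P0 ganglion cells held 12 to 26 cells per retina. The count of genes called in the P0 cell types other than progenitors, 1 (*Dkk3* in ganglion cells), was 0 by DESeq2, against the heterozygous and wild-type retinas together, against the wild type alone (a single retina, assumed to vary like the other groups) and when any 1 retina was left out (0 to 0), and stayed 1 with DESeq2's size factors, without the filter and with a *Xist* term. The *Dkk3* log2 fold change there was 1.33 (adjusted p = 0.562) against both control genotypes together. All other counts of genes called stayed at 0 under every alternative run, among which DESeq2 was stricter than edgeR.

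Of the 40 log2 fold changes named, 178 of 192 values under other settings kept their direction and side of the threshold, 3 lost the call and 11 reversed. Of 257 values with a sample left out, 231 kept both, 5 lost the call and 21 reversed. In explant primary progenitors *Spry2* was -0.14 without explant 500 nM 2 and -0.09 without explant 0 nM 1. *Sfrp1* was -0.28 without explant 500 nM 2. *Sfrp2* was -0.06 without explant 0 nM 2 and -0.16 in cells with a *Xist* UMI alone. *Spry1*, at 0.00, was 0.01 without the filter, 0.09 in cells with a *Xist* UMI, 0.54 without explant 0 nM 2, 0.16 without explant 500 nM 1 and -0.58 without explant 0 nM 1. In P0 primary progenitors *Sfrp2* was -0.08 without knockout retina 2. *Fgf15* was -0.14 without heterozygous retina 1, -0.08 without knockout retina 2, -0.03 against both control genotypes and -0.15 against the wild type. *Fzd5* was 0.02 without heterozygous retina 2 and 0.08 without knockout retina 2, and *Dkk3* 0.05 without heterozygous retina 2. In P0 amacrine cells *Sfrp2* was 0.11 against the wild type. In P0 ganglion cells *Axin2* was 0.20 without heterozygous retina 1 and 0.05 without knockout retina 1. In Muller glia *Dkk3* was 0.04 without heterozygous retina 2, 0.03 without knockout retina 1, 0.07 against both control genotypes and 0.42 against the wild type, and *Spry1* was 1.79 without heterozygous retina 1 and 0.21 against the wild type. In rods *Spry2* was -0.08 without heterozygous retina 2, -0.20 without knockout retina 1, -0.05 against both control genotypes and -0.18 against the wild type, and *Axin2* 0.02 without heterozygous retina 1 and 0.04 without knockout retina 2. None of these reversed values passed the threshold, and the causes were not tested.

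Counts over all genes moved more than those of the set. In explant primary progenitors 27 genes were called between 500 and 0 nM by edgeR, 67 without the filter, 1 by DESeq2 and 6 to 241 with an explant left out, and the dose slope called 45, 88, 5 and 6 to 109. In P0 primary progenitors the count was 1, 2 by DESeq2, 20 with a *Xist* term and 1 to 29 with a retina left out, and in P0 ganglion cells 41 and 2 to 46 over all alternatives. Over all alternatives the counts ran from 0 to 8 around 6 in explant neurogenic progenitors, 0 to 22 around 7 in explant photoreceptors, 1 to 39 around 22 in explant amacrine cells and 0 to 7 around 0 in explant cells named RGCs. They ran from 1 to 21 around 1 in P0 neurogenic progenitors, 1 to 120 around 6 in P0 photoreceptors and 1 to 69 around 4 in P0 amacrine cells. At P14 they ran from 1 to 48 around 9 in Muller glia, 0 to 26 around 1 in rods, 0 to 21 around 4 in cones and 1 to 61 around 12 in bipolar cells. The slope in neurogenic progenitors called 2 to 5 around 4, and the differences between progenitor classes 3 to 21 around 10 in explants and 3 to 14 around 5 at P0. No paired analysis was possible because the deposited cell metadata carry a barcode and a condition for each sample and no replicate number. The *Xist* term was not run at P14.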
